A study of Mus musculus with 12 samples.

Results

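The 40 genes described here encode clotting factors, kinin and fibrinolysis proteins, complement proteins and plasma inhibitors that hepatocytes secrete. They were taken by gene symbol from a table of 34986 genes, and all 40 were found. RNA sequencing was done on the livers of 12 mice, all female, of the strain C57BL/6 and 16 weeks old. All 12 received valproic acid (VPA), which is used against epilepsy and is known for liver toxicity. In 6 mice VPA was given without a partner drug (VPA), and in the other 6 it was combined with obeticholic acid (VPA_OCA), a semisynthetic bile acid and agonist of the receptor FXR. Mice without VPA were not analysed here, and neither dose nor duration is given in the sources used here, so every difference below is between VPA_OCA and VPA. The series design gives 6 mice per treatment, so each library is taken as a separate mouse.

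Coagulation is a cascade of serine proteases, most of them made in the liver, that ends with thrombin cutting fibrinogen into fibrin. Plasmin dissolves fibrin again, and serpins and the protein C system restrain the cascade. Complement is a parallel protease cascade in which the classical, lectin and alternative routes all cut C3, and the terminal proteins C5 to C9 then assemble a pore in the target membrane. Several genes of both cascades, among them those of fibrinogen, kininogen and C3, have been described as FXR targets in liver cells.

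Values are the authors' normalized counts, read counts scaled per library, which summed to 20236900 to 22087711 per library. Together the 40 genes made up 2.87% to 4.15% of that sum. Libraries numbered 1 to 3 and 4 to 6 stood apart on the first principal component (40.4% of the variance) in both treatments, and no label explains the numbering. Skeletal muscle transcripts were present in VPA 4 and VPA 5: the creatine kinase gene Ckm was at 127 and 21.8 there and at no more than 2.08 in VPA_OCA, and the sum of 7 muscle markers was 5.27 to 511.7 in VPA and 12.98 to 25.93 in VPA_OCA. The sum of the 8 hepatocyte markers, Alb and Ttr among them, was 2232000 to 3209000 in VPA and 1971000 to 3205000 in VPA_OCA, and 0 of the 8 were absent. In whole tissue, fewer cells of a type and less RNA per cell cannot be told apart.

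In the VPA_OCA livers, most transcripts of coagulation and complement lay close to their level in the VPA livers. By limma on log2(normalized count + 1) with Benjamini-Hochberg adjustment over 19006 genes, 0 of the 40 genes passed an adjusted p of 0.05, against a background of 0.721% of all genes tested. At an unadjusted p under 0.05 the count was 1, the pore-forming complement gene C9, against a background of 9.55%, and in the authors' deposited table C9 was also the 1 gene of the 40 that passed, where 5.57% of 12517 genes did. The median log2 fold change was -0.006, with 20 genes positive and 20 negative, beside a median of -0.0005 over all genes tested. The fold change was under 1.2 in either direction for 38 of 40 genes (95%); the share was 68.8% over all genes tested and 87.5% over the 7358 genes whose mean was at least that of the lowest of the 40. For 33 genes the 95% interval lay within 1.5-fold in both directions, and for the other 7 it reached beyond. In all 40 genes the values of the treatments overlapped, while 1.44% of all genes tested did not overlap. The standard error of a log2 fold change ranged from 0.0786 to 0.319 with a median of 0.131, and the median coefficient of variation between mice was 14.2% in VPA and 15.8% in VPA_OCA.

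**Figure D1:**
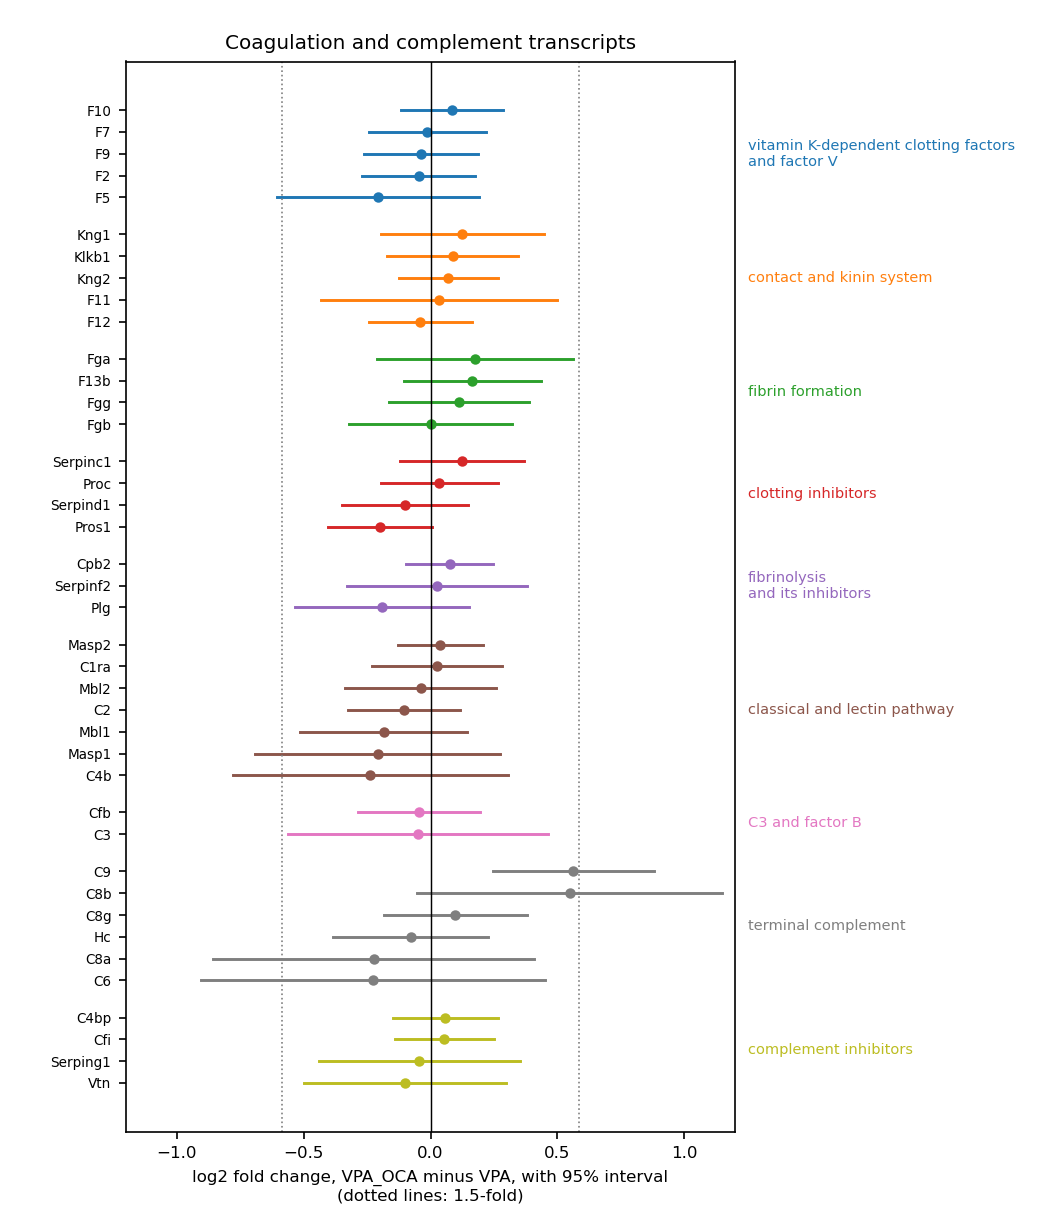
Log2 fold change (VPA_OCA minus VPA, points) with its 95% interval (lines) for the 40 genes, coloured and grouped by role; dotted lines mark 1.5-fold in each direction. Most points lie near 0, and the interval of C9 (0.25 to 0.88) is the only one of the 40 that does not include 0.

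C9 and C8b had the largest fold changes, 1.48 and 1.46, both higher in VPA_OCA. C9 encodes the protein that polymerises into the membrane attack pore, and C8b and C8a encode chains of C8, which anchors that pore. The gene of C9 (ENSMUSG00000022149) lies on chromosome 15, and those of C8b (ENSMUSG00000029656) and C8a (ENSMUSG00000035031) lie next to each other on chromosome 4, on opposite strands with their ends 11130 bases apart and no other gene of the table in between. C9 is the gene nearest the threshold, and the point estimates of C8b and C8a, neither of which passed, had opposite signs. For this reason the 250 bases upstream of the RefSeq start (GRCm38.p6) are printed for these 3 genes. They are C9 at chr15:6445096-6445345 (+ strand), C8b at chr4:104766067-104766316 (+ strand) and C8a at chr4:104876399-104876648 (- strand), with capitals marking the hexamers AGGTCA and GTTAAT or their reverse complements.
C9: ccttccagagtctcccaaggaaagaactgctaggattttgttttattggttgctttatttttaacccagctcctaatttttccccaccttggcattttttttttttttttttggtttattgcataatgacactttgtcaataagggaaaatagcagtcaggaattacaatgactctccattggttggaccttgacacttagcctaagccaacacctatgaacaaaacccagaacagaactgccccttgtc
C8b: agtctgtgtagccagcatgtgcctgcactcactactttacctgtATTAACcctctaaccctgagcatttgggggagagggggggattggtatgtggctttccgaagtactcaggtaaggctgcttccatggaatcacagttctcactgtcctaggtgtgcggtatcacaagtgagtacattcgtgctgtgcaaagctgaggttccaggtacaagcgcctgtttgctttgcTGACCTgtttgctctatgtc
C8a: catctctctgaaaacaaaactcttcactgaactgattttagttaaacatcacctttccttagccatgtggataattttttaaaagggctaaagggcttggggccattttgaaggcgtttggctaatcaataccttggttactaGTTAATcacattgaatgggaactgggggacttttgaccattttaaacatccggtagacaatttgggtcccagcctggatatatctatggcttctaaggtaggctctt
In the C8b window a TGACCT began 20 bases and an ATTAAC 206 bases before the start, in the C8a window a GTTAAT began 107 bases before it, and the C9 window held neither.

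RefSeq windows were available for 31 of the 40 genes and were searched on both strands. AGGTCANTGACCT, the inverted repeat that FXR binds as a dimer with RXR, was found in 0 of the 31, beside 0.00609% of 32851 windows. A repeat this rare would be missing from nearly any 31 genes, so its absence is not informative. The hexamer AGGTCA of this repeat, which many nuclear receptors share, was in 11 of 31 genes (35.5%), beside 14% of all windows. The genes with it were C3, C6, C8b, F10, F2, F5, F7, Fgg, Kng2, Mbl2 and Serpinf2. The palindrome GTTAATNATTAAC of the liver factor HNF1 was in 0 of 31, beside 0.00913%, and this absence is not informative either. The hexamer GTTAAT of this palindrome was searched after the palindrome was found to be this rare. It was in 9 of 31 genes (29%), beside 6.43% of all windows: C1ra, C4bp, C8a, C8b, F13b, Fga, Fgb, Hc and Vtn. These are matches of letters in a short window and do not identify bound sites. The shares of the 31 count genes, while the shares beside them count windows. Because the units differ, they do not measure an excess of either hexamer in these genes.

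C9 was at 2321, 1509, 1977, 2022, 3202 and 2325 normalized counts in VPA 1 to 6 and at 3530, 3885, 2813, 2856, 3331 and 2955 in VPA_OCA 1 to 6. All 6 VPA_OCA mice lay above 5 of the 6 VPA mice, and VPA 5 alone reached into their range. The means were 2226 ± 564 (SD, n = 6) and 3228 ± 429 (SD, n = 6), and the log2 fold change was 0.56 ± 0.15 (SE; limma adjusted p = 0.12). In the authors' deposited table the log2 ratio of C9 is 0.5423 with an adjusted p of 0.009219.

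The result for C9 depended on how the libraries were treated. With a term for numbers 1 to 3 against 4 to 6 its limma adjusted p was 0.049, and 1 of the 40 genes passed there (C9), beside 2.13% of all genes tested. VPA 5 was the only VPA mouse within the VPA_OCA range of C9, so leaving it out must raise the fold change. It also held muscle transcripts, and their part in the C9 values was not tested. Without VPA 5 the log2 fold change was 0.68 (limma adjusted p = 0.024), and without both VPA 4 and VPA 5 it was 0.68 (limma adjusted p = 0.045). With VPA 4 alone left out, the library with more Ckm, C9 did not pass. Within numbers 1 to 3 the difference was 0.83 and did not pass (limma adjusted p = 0.064), although every VPA_OCA mouse lay above every VPA mouse. Within numbers 4 to 6 it was 0.30 and did not pass either (limma adjusted p = 0.51), with overlapping values. The difference between these values was not called (interaction, limma adjusted p = 0.61).

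C8b was at 505.4, 559.1, 574.4, 766.7, 1573 and 865.3 normalized counts in VPA 1 to 6 and at 901, 1664, 646.5, 1470, 1466 and 793.5 in VPA_OCA 1 to 6. The groups overlapped broadly, and VPA 5 was again the highest VPA library. The log2 fold change was 0.55 ± 0.28 (SE; limma adjusted p = 0.57). C8a was at 1112, 729.1, 964.4, 1000, 2877 and 1406 in VPA 1 to 6 and at 955.8, 1144, 553.7, 1682, 1333 and 915.9 in VPA_OCA 1 to 6. Its point estimate had the opposite sign, at a log2 fold change of -0.22 ± 0.30 (SE; limma adjusted p = 0.89), and it became 0.025 without VPA 5.

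The ratio of C8b to C8a within each liver separated the treatments. It was 0.454, 0.767, 0.596, 0.767, 0.547 and 0.615 in VPA 1 to 6 and 0.943, 1.45, 1.17, 0.874, 1.1 and 0.866 in VPA_OCA 1 to 6. The lowest VPA_OCA ratio thus lay above the highest VPA ratio, and VPA 5, the highest VPA library in both genes, was not an exception. The means were 0.624 ± 0.124 (SD, n = 6) and 1.07 ± 0.226 (SD, n = 6), a 1.71-fold difference of geometric means, with an exact 2-sided permutation p of 0.0022, the smallest that 924 regroupings can give. The ratio was examined after the values were seen: of the 780 pairs among the 40 genes, 12 (1.54%) had ratios without overlap, and the exact permutation p adjusted over the 780 pairs was 0.14. In 9 of the 12 neither C9 nor C8b took part, for example Fga with Plg and Kng1 with Plg. The share among pairs of all genes tested was not computed, so the count of 12 does not measure an excess.

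**Figure D2:**
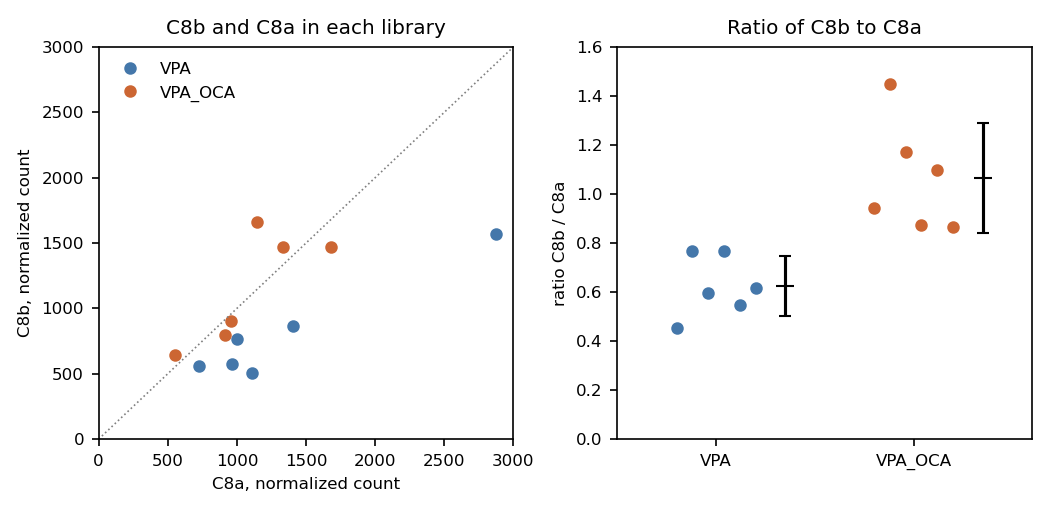
Left, normalized counts of C8b (y axis) against C8a (x axis) in each of the 12 libraries, with the dotted line at equal counts; right, the ratio of C8b to C8a per library with mean and SD bars. The VPA ratios lie between 0.454 and 0.767 and the VPA_OCA ratios between 0.866 and 1.45.

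The other terminal complement genes, C8g, Hc and C6, did not pass either. C8g, which encodes the small lipocalin chain of C8, was at 9619 ± 1380 in VPA and 10350 ± 1920 in VPA_OCA, and Hc, the mouse gene of C5, at 9576 ± 1370 and 9165 ± 1920 (SD, n = 6 each). C6, whose product joins C5b to start the pore, was the least abundant of the 40 genes at 5.79 FPKM (the authors' value per gene length and library total, by which levels of different genes can be compared) in VPA and 4.44 in VPA_OCA. Its log2 difference was 0.26 within numbers 1 to 3 and -0.71 within numbers 4 to 6, where the highest VPA_OCA mouse (216.9 normalized counts) lay below the lowest VPA mouse (297.2). C6 was the only gene of the 40 with an unadjusted interaction p under 0.05 (limma adjusted p = 0.51), against a background of 8.36% of all genes tested.

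**Figure D3:**
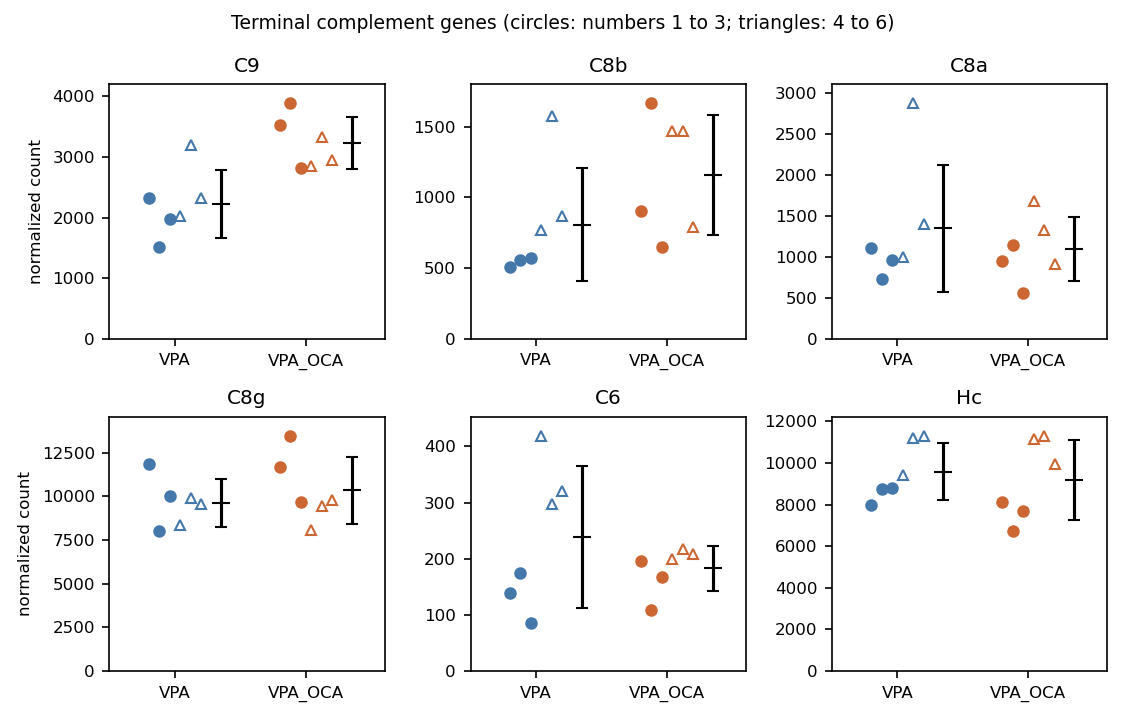
Normalized counts of the 6 terminal complement genes in each library, VPA in blue and VPA_OCA in orange, circles for numbers 1 to 3 and triangles for 4 to 6, with mean and SD bars. C9 sits higher in VPA_OCA except for VPA 5 at 3202, and C6 is highest in VPA libraries 4 to 6.

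Upstream of the pore, 0 of the 7 classical and lectin genes passed, and 5 of the 7 had log2 fold changes below 0. Mbl1, a mannose-binding lectin that recognises microbial sugars, ranged from 2246 through a median of 2762 to 3955 normalized counts in VPA and from 1951 through 2328 to 3371 in VPA_OCA. The groups overlapped over most of their range, at a log2 fold change of -0.19 ± 0.16 (SE; limma adjusted p = 0.79). C2, the protease of the C3 convertase, ranged from 1814 through 2000 to 2222 in VPA and from 1538 through 1838 to 2307 in VPA_OCA. Its lowest and highest values were both in VPA_OCA, and its log2 fold change was -0.10 ± 0.10 (SE; limma adjusted p = 0.84). C4b, whose product joins C2 in that convertase, had a log2 fold change of -0.24, Masp1 one of -0.21, and Mbl2, Masp2 and C1ra lay between -0.04 and 0.04. C4b has a close copy, C4a, listed at 253.9 normalized counts in VPA, and how reads shared by both were counted is not given in the sources used here.

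C3, where the routes of complement meet, was the most abundant of the 40 genes at 2912 FPKM in VPA and 2890 in VPA_OCA. Its mean was 103900 ± 26100 normalized counts in VPA and 102700 ± 34200 in VPA_OCA (SD, n = 6 each), a difference far below the spread between mice. Its partner in the alternative convertase, Cfb, was at 22210 ± 1970 and 21590 ± 2590. The inhibitors of complement had log2 fold changes of 0.058 for C4bp and 0.055 for Cfi, which inactivate C4b and C3b, -0.10 for vitronectin (Vtn), which blocks pore insertion, and -0.04 for the C1 inhibitor Serping1.

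Among the clotting proteases, 0 of 5 vitamin K-dependent factors and factor V passed. F5, the cofactor of the prothrombinase, ranged from 6262 through a median of 7656 to 10680 normalized counts in VPA and from 4564 through 6944 to 10150 in VPA_OCA. Within numbers 1 to 3 the groups did not overlap (log2 difference -0.38), and within numbers 4 to 6 they did (-0.04; limma interaction adjusted p = 0.69). The overall log2 fold change was -0.21 ± 0.19 (SE; limma adjusted p = 0.82). Prothrombin (F2) was at 34800 ± 1990 and 33700 ± 1590 normalized counts, and the log2 fold changes of F7, F9 and F10, the proteases that activate one another ahead of thrombin, were -0.01, -0.04 and 0.09. The 95% intervals of F2, F7, F9 and F10 reached no further than 1.22-fold higher.

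The contact and kinin genes F11, F12, Klkb1, Kng1 and Kng2 had log2 fold changes of -0.04 to 0.13. Kng1, the kininogen from which bradykinin is cut, was at 48200 ± 7310 normalized counts in VPA and 52670 ± 8430 in VPA_OCA, 1550 and 1704 FPKM. Kng2, a kininogen gene beside it, was at 195.5 and 206 FPKM. The longest coding transcripts of the pair are 93.5% identical over 2199 aligned bases, so the division of reads between them is uncertain.

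Of the 4 genes for fibrin 0 passed, and their log2 fold changes were 0.00 to 0.18. Fga, the fibrinogen alpha chain, ranged from 43950 through a median of 61470 to 75110 normalized counts in VPA and from 54170 through 67920 to 82180 in VPA_OCA. In both treatments the upper values were those of numbers 4 to 6, and within that set the VPA_OCA mice lay above the VPA mice (log2 difference 0.20), while the overall log2 fold change was 0.18 ± 0.18 (SE; limma adjusted p = 0.85). Fgg and Fgb, the other fibrinogen chains, had log2 fold changes of 0.11 and 0.00. F13b, the carrier subunit of the enzyme that cross-links fibrin, ranged from 3410 through 3592 to 4616 in VPA and from 3182 through 4103 to 5313 in VPA_OCA, at a log2 fold change of 0.16 ± 0.13 (SE; limma adjusted p = 0.77). The 3 fibrinogen genes lie side by side on chromosome 3, and the ratios of Fga and of Fgg to Fgb overlapped between the treatments, at 0.765 ± 0.0942 and 0.86 ± 0.0693 for Fga and 0.771 ± 0.0306 and 0.836 ± 0.0743 for Fgg (SD, n = 6 each).

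Of the 4 natural anticoagulants 0 passed. Pros1, the cofactor of activated protein C, ranged from 665 through a median of 764.8 to 824 normalized counts in VPA and from 540.1 through 663.3 to 779.4 in VPA_OCA. The upper VPA_OCA values lay within the VPA range, and the log2 fold change was -0.20 ± 0.10 (SE), with a 95% interval of -0.40 to 0.01 and a limma adjusted p of 0.54. Serpinc1, antithrombin, ranged from 46470 through 51220 to 52240 in VPA and from 51960 through 54100 to 57920 in VPA_OCA. The ranges barely overlapped, and within each set of 3 numbers every VPA_OCA mouse lay above every VPA mouse, at log2 differences of 0.13 and 0.12. The fold was small at 1.09, and the limma adjusted p was 0.82. Its coefficients of variation were low, at 5.22% in VPA and 3.9% in VPA_OCA. The limma standard error of 0.115 also draws on other genes of similar level, so this p does not measure the spread of Serpinc1 alone. In the authors' deposited table its adjusted p is 0.5251. Serpind1, heparin cofactor II, and Proc, protein C, had log2 fold changes of -0.10 and 0.03.

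Plg, the precursor of plasmin, ranged from 36510 through a median of 44170 to 54580 normalized counts in VPA and from 30920 through 37660 to 51370 in VPA_OCA. Within numbers 1 to 3 all VPA_OCA mice lay below all VPA mice, within numbers 4 to 6 they overlapped, and the log2 fold change was -0.19 ± 0.16 (SE; limma adjusted p = 0.80). Its inhibitors Serpinf2, which binds plasmin, and Cpb2, which trims plasmin's docking sites off fibrin, had log2 fold changes of 0.03 and 0.08.

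Within numbers 1 to 3 the treatments did not overlap in 8 of the 40 genes (20%), beside 18.6% of all genes tested, and within numbers 4 to 6 in 6 genes (15%), beside 16.8%. The former were C9, C8b, Plg, F5, F12, Vtn, Pros1 and Serpinc1, and the latter Fga, Fgg, C6, F2, F7 and Serpinc1. Both shares were near the background. The sign of the difference was positive in both sets for 12 genes, negative in both for 12 and opposite for 16, and 0 of 40 passed a limma test of the interaction (0.0105% of all genes tested did).

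These genes also differed by replicate number. In libraries 4 to 6, 35 of 40 genes were higher than in libraries 1 to 3 among VPA mice and 32 among VPA_OCA mice, 32 of them in both, with medians of 0.21 and 0.26 on the log2 scale. Over all genes tested, 49.3% were higher in numbers 4 to 6 among VPA mice and 47.9% among VPA_OCA mice, with medians of -0.0082 and -0.02. In 19 genes among VPA mice (beside 15.7% of all genes tested) and in 20 among VPA_OCA mice (beside 16.4%), every library of numbers 4 to 6 lay above every library of numbers 1 to 3. All 6 libraries numbered 4 to 6 lay above all 6 numbered 1 to 3 in 12 genes (beside 5.65%): C3, C4b, C1ra, Masp1, Serping1, Hc, C6, F5, F11, Fga, Fgb and Serpinf2. C4b was at 16880 to 21590 normalized counts in VPA 1 to 3 and at 31140 to 33620 in VPA 4 to 6, and at 12330 to 17360 and 28210 to 32930 in the same sets of VPA_OCA. C3 went from 68730 to 93040 over the 6 libraries numbered 1 to 3 to between 103100 and 144400 over the other 6. In both treatments F9, F13b, Mbl1, Mbl2 and C8g were lower in numbers 4 to 6. The pattern was not confined to the 40 genes. For the secreted liver proteins Itih4 and Serpina3n, too, all libraries numbered 4 to 6 lay above all those numbered 1 to 3. Itih4 was at 19800 to 28630 in numbers 1 to 3 and at 30270 to 38750 in numbers 4 to 6. Apcs, another secreted protein, was lower in numbers 4 to 6 in both treatments. The summed hepatocyte markers were 1971000 to 2910000 in numbers 1 to 3 and 2591000 to 3209000 in numbers 4 to 6; their part in this pattern was not tested.

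**Figure D4:**
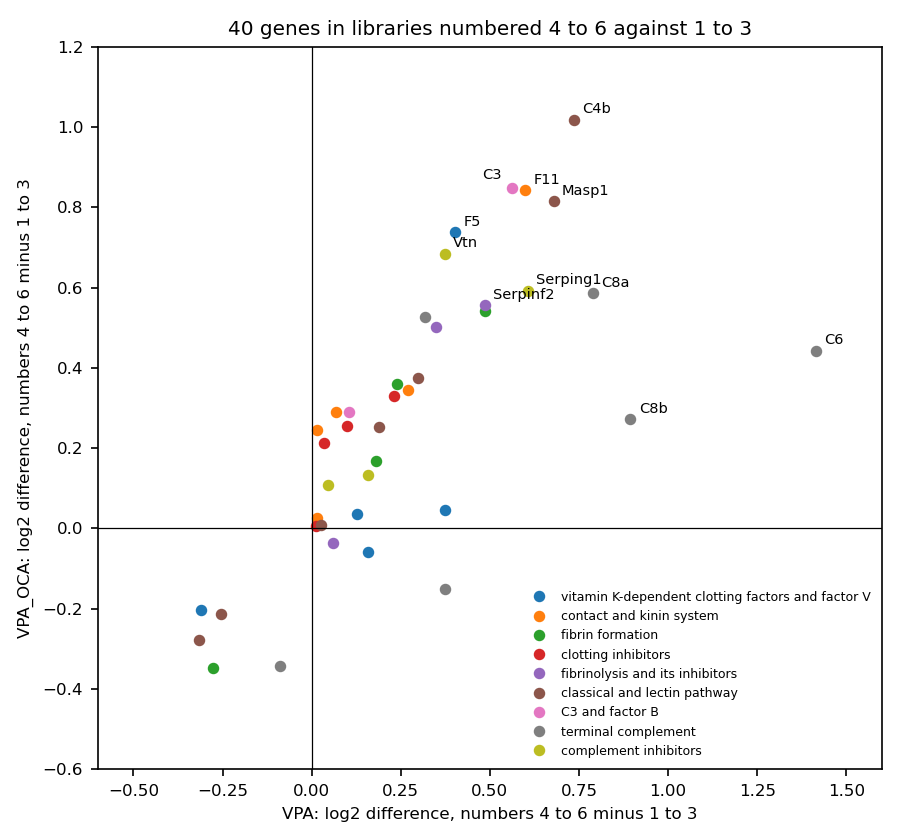
Difference in mean log2 value between libraries numbered 4 to 6 and 1 to 3 for each of the 40 genes, in VPA (x axis) and VPA_OCA (y axis), coloured by role. Of the 40 genes, 32 lie above 0 on both axes and 5 below 0 on both.

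More of the pathway was examined through 65 further genes, of which 61 were tested. They include receptors, regulators and proteins of other cells, and also further secreted liver proteins such as Proz, C1s1 and Clu. By limma 0 of the 61 passed, beside 0.721% of all genes tested, and 6 had an unadjusted p under 0.05, a share near the 9.55% of all genes tested. The authors' deposited table has 4 below an adjusted p of 0.05, among them F3 (tissue factor), Ace and Plgrkt. These are 3 of the 22 coagulation, kinin and fibrinolysis genes and 1 of the 26 complement genes with an adjusted p there, beside 5.57% of 12517 genes. By limma the median log2 fold change was -0.054, with 29 positive and 32 negative. Plgrkt, a membrane receptor for plasminogen, was nearest the threshold: it ranged from 103 through 112.7 to 135.4 normalized counts in VPA and from 125.9 through 170.6 to 180.4 in VPA_OCA. Only VPA_OCA 2 lay inside the VPA range, and the log2 fold change was 0.51 ± 0.12 (SE; limma adjusted p = 0.067). With the term for numbers 1 to 3 against 4 to 6 Plgrkt passed, at a limma adjusted p of 0.025, and in the authors' deposited table it has an adjusted p of 0.007767.

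Of the other genes with the smallest p, Ace, the kininase that degrades bradykinin, had a log2 fold change of 0.88, from 11.7 ± 4.24 to 21.3 ± 1.73 normalized counts (SD, n = 6 each; limma adjusted p = 0.14). Serpina5, the protein C inhibitor, stood at no more than 2.02 normalized counts in VPA and 13.5 in VPA_OCA. C1rl, Cr1l and C1qbp had log2 fold changes of 0.18, 0.17 and 0.17. F8, the clotting cofactor made by sinusoidal endothelial cells, had one of -0.35 (limma adjusted p = 0.53). The 8 sinusoidal endothelial markers were all negative with 0 of 8 passing by limma, 1 at an unadjusted p under 0.05 and 1 (Lyve1) in the authors' deposited table. With the term for numbers 1 of the 8 passed as lower, beside 2.13% of all genes tested. Their median log2 difference was 0.105 within numbers 1 to 3 and -0.542 within numbers 4 to 6, where F8 had -0.33 and -0.36. The sum of the markers was 3494 to 5944 in VPA and 3527 to 4883 in VPA_OCA. Their part in the value of F8 was not tested.

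For comparison, other secreted liver proteins and the regulators of these genes were read from the same fit. In a list of 24 acute phase genes, 5 had an unadjusted p under 0.05 by limma and 1 passed, beside 9.55% and 0.721% of all genes tested, while 4 pass in the authors' deposited table (Orm3, Apcs, Socs3 and Il1rn). The gene that passed by limma was Orm3, an orosomucoid, which rose from 95.9 ± 34 to 354.2 ± 110 normalized counts (SD, n = 6 each). Its log2 fold change was 1.89 (limma adjusted p = 0.0018). Within numbers 1 to 3 it was 2.69 (limma adjusted p = 0.0001) and within numbers 4 to 6 it was 1.09 (limma adjusted p = 0.066). The difference between these sets was not called (interaction, limma adjusted p = 0.13). In 23 other plasma protein genes 0 passed by limma and 1 had an unadjusted p under 0.05, beside the same 0.721% and 9.55%. It was the corticosteroid-binding globulin Serpina6, at a log2 fold change of -0.50 (limma adjusted p = 0.18). Serpina6 is also the 1 gene of the 23 that passes in the authors' deposited table, beside 5.57%. Of 15 liver transcription factor genes 0 passed by limma and 6 had an unadjusted p under 0.05, beside the same 0.721% and 9.55%, while 2, Foxa3 and Onecut1, pass in the authors' deposited table. Among these, Onecut1, which encodes HNF6, had a log2 fold change of 0.80 (limma adjusted p = 0.14; 0.032 with the term for numbers), Foxa3 one of -0.42, Rxra, the partner of FXR, one of -0.28 and Hnf4a, a main activator of clotting factor genes, one of -0.23.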

How the data were processed

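RNA was extracted with Trizol from flash-frozen livers and sequenced from TruSeq RNA libraries, per the labels' protocols. The submitters' processing notes name edgeR and GRCm38.p5; the aligner, the counter and strandedness were not given in the sources used here. The authors deposited 1 table with normalized counts (a scaled signal per gene), FPKM, a GC fraction, log2 ratios and p-values before and after adjustment, per the file headers. In some cells a decimal comma beside an exponent had made the value 1000-fold too high, and these were scaled back (89 normalized counts, 129 FPKM, 10536 log2 ratios, 238 p-values and 88 adjusted p-values); none was in the rows of the 40 genes. Column totals were 20236900 to 22087711. Since the values are normalized, limma 3.58.1 (R 4.3.3) was fitted with an intensity trend and group as the only term to log2(normalized count + 1) of the 19006 genes with at least 1 in at least 6 libraries, with Benjamini-Hochberg adjustment and a threshold of 0.05. This scale understates changes of low genes. The trend draws the variance of each gene toward that of genes of similar level, so a standard error is not the spread of that gene alone. The fit was tested on simulated data. Ratios of pairs were compared by exact permutation tests (scipy 1.17.1). Groups and numbers came from sample titles. Positions of genes are the authors'; upstream windows are from RefSeq (GRCm38.p6) and transcripts from GENCODE. The genes described in full are those with the 10 smallest p-values, and of other lists those that passed and otherwise up to 4 with the smallest p. The 40 genes and all lists were chosen with earlier results of these data known. The alternatives were other filters, pseudocounts of 0.1 and 5, other scalings, limma without trend, a block or a term for numbers, subsets of libraries, and, added after the data were seen, an interaction of group and numbers. The identity of paired proteins was not analysed here. A gene of the other pathway lists is not reported here.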

Additional observations from a re-analysis of the deposited data

Results flagged for a closer look

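In 7 of 112 sets of 6 values, the highest or lowest value was separated from its neighbour by a gap that exceeded Dixon's 95% critical value for its share of the range; 4 of these were among the 80 sets of the 40 genes. Chance gives about 1 in 20. VPA 5 was far above the other VPA libraries in C8a (2877, next 1406) and in C8b (1573, next 865.3), 2 neighbouring genes. Kng2 was highest in VPA_OCA 5 at 8362, and C4bp lowest in VPA 2 at 5848. Among the other pathway genes, Plgrkt was lowest in VPA_OCA 2 at 125.9, C1rl lowest in VPA 1 at 2571 and Cr1l lowest in VPA 6 at 739.9. All values are normalized counts.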

How the results depend on the processing

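Of 960 recomputed fold changes of the 40 genes under 24 settings, 888 kept their direction and their side of the threshold, 3 newly passed (all C9) and 69 reversed, in 20 genes whose log2 fold change was at most 0.227 in size. The genes passing among all tested numbered 210 with the replicate block, 404 with the term for numbers, and 92 to 146 with single libraries left out. Among the 40 genes 1 passed with the term, 1 without VPA 4 and 5, and 0 to 1 with single libraries left out (1 without VPA 5); with the replicate block 0 passed (1.1% of all genes tested did), and C9 had a limma adjusted p of 0.083. Among the other pathway genes 1 passed with a minimum of 10, 1 with the replicate block, 2 with the term, and 0 to 1 with single libraries left out (1 without VPA_OCA 2). The cause of these changes was not tested.

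Log2 fold changes that reversed were, for Fgb, -0.008 with median-ratio and -0.012 with upper-quartile scaling. In numbers 1 to 3 alone they were F7 0.152, F11 -0.089, Klkb1 -0.028, Fgb -0.060, Proc -0.043, Serpinf2 -0.009, C1ra -0.013 and C6 0.259. In numbers 4 to 6 alone they were F9 0.017, F10 -0.022, F12 0.071, C3 0.096, Cfb 0.048, Hc 0.026, C8g -0.029 and Vtn 0.056. Without VPA 4 and 5 they were F7 0.083, C3 0.042, C6 0.149, C8a 0.018 and Serping1 0.080. With single libraries left out, the ranges were F7 -0.094 to 0.045, F9 -0.091 to 0.015, F11 -0.107 to 0.183, Fgb -0.048 to 0.048, Proc -0.013 to 0.078, Serpinf2 -0.062 to 0.107, C1ra -0.035 to 0.079, Mbl2 -0.115 to 0.024, Masp2 -0.001 to 0.059, C3 -0.160 to 0.055, Hc -0.145 to 0.005, C8a -0.371 to 0.025 and Serping1 -0.142 to 0.046.

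Deviations from the group mean correlated between libraries of the same number at r = 0.0233 to 0.183, and only number 3 matched its own number best from the VPA side, so the numbers were not taken as pairs. Depth per library is not in the table, so no counting interval is given.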
